A study of Mus musculus with 2 samples.

Results

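The median gap between neighbouring autosomal Hmga2 peaks was 36.3 kb, but some megabases held hardly any peak. The peaks described here are those few that remain in such megabases. Each autosome was divided into fixed bins of 1 Mb, only bins lying wholly between its first and last peak were used, and every peak was placed by its centre. The bins with 1 to 4 peaks, called peak-poor below, held 658 peaks. These are 1.95% of the 33754 autosomal peaks in whole bins, out of 34597 peaks in the list. There were 219 peak-poor bins among 2384 whole bins (9.19%), and a further 29 bins (1.22%) were empty. The peaks were chosen by how many peaks surround them in the same library, so the values below are a description and none was tested.

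The list comes from 1 experiment, in which chromatin of E14Tg2a cells was precipitated with an antibody against Hmga2 and compared with an input library that received no antibody. E14Tg2a is a mouse embryonic stem cell line, here induced into epiblast-like cells (EpiLCs) with Activin A and bFGF and labelled as stabilized. The study's methods instead name epiblast stem cells obtained from induced pluripotent cells. There is 1 ChIP library and no replicate, so no value has an error between experiments. Intervals given for shares cover counting error of the peaks or bins only.

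Hmga2 is a non-histone chromatin protein that binds the minor groove of A+T-rich DNA through AT-hooks. It bends and opens DNA rather than activating transcription by itself, and it is abundant in embryonic cells and scarce in most adult tissues. The study examined it in relation to the nuclear lamina, the protein layer under the nuclear envelope to which gene-poor and mostly silent chromatin attaches. The positions below are those of the list, counted from 1. The submitters' processing notes name mm9, and the list is not on GRCm38, the genome used here, since 136 peaks on 7 chromosomes end beyond its chromosome ends. No sequence and no gene is therefore given for a peak. The depth of the libraries is not in the list and is unknown here.

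Peak-poor bins formed the lower tail of a broad distribution. The median bin held 12 peaks and the fullest 60. Of the peak-poor bins, 25 held a single peak, 38 held 2, 67 held 3 and 89 held 4, while 94 bins just outside the limit held 5. The comparison bins, those with 10 to 15 peaks, numbered 715 and held 8778 peaks. The members together covered 137.6 kb of 219 Mb.

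**Figure D1:**
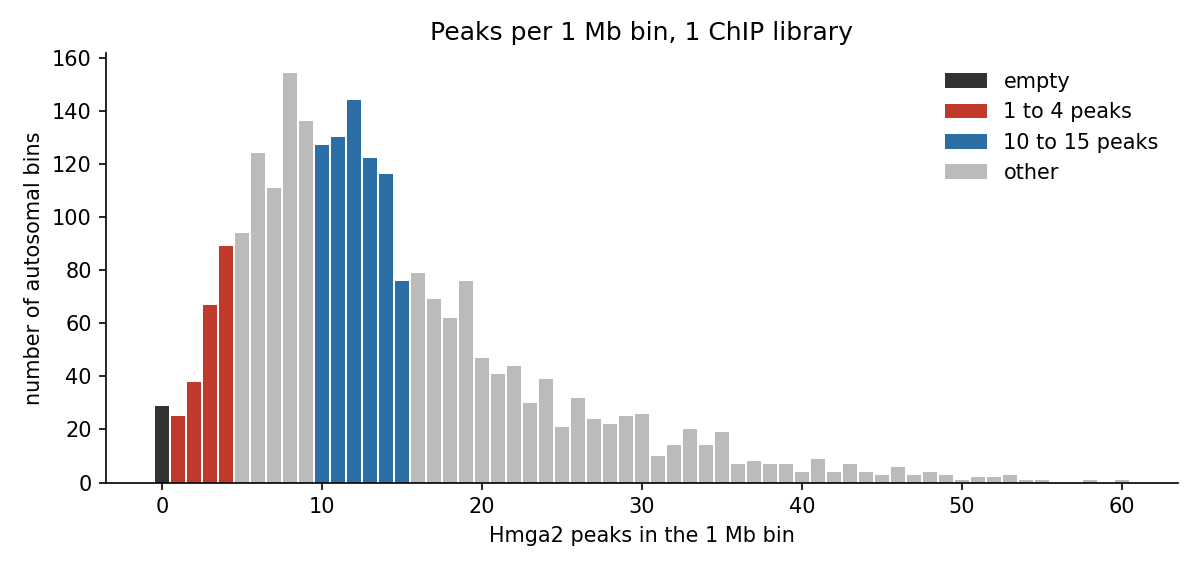
Number of autosomal 1 Mb bins (vertical axis) by the number of Hmga2 peaks they hold (horizontal axis), in 1 ChIP library. The 29 empty bins are dark, the 219 bins with 1 to 4 peaks red and the 715 bins with 10 to 15 peaks blue, and the right tail reaches 60 peaks.

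The pileup, the height of overlapping ChIP fragments that MACS2 gives for a peak, was higher in the peak-poor bins. Its median was 6.94 in the members, with quartiles of 5.89 and 8.90 and a range of 5 to 21.3. In the bins with 10 to 15 peaks the median was 6.49, with quartiles of 5.62 and 7.88, and over all autosomal peaks in whole bins it was 6.33. The 95% order-statistic interval of the median ran from 6.76 to 7.13 in the members and from 6.44 to 6.54 in the comparison bins. The distributions of single peaks overlapped almost completely, and the difference between the medians, 0.45, was small beside the spread within either set. It was clearer in the upper part: the 90th percentile was 11.3 in the members and 9.98 in the comparison bins. The 99th percentiles were 18.5 and 15.8, while the single highest pileup was 21.3 in the 658 members and 44.2 in the 8778 comparison peaks.

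A pileup of at least 10 was found in 112 of the 658 members, or 17.0% (95% Wilson interval 14.3% to 20.1%). The share was 9.93% (9.33% to 10.6%) in the bins with 10 to 15 peaks and 7.87% over all autosomal peaks in whole bins. With bins shifted by 500 kb it was 13.5% in peak-poor bins and 9.71% in the comparison bins. At the other end, 181 members (27.5%) had a pileup under 6, compared with 36.2% in the comparison bins and 39.7% of all. A pileup of at least 15 was reached by 18 members (2.74%, 1.74% to 4.28%), compared with 1.39% and 1.06%. Members made up 4.22% of all autosomal peaks with a pileup of at least 10 and 1.35% of those under 6.

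Peak length went the other way. The members had a median length of 170.5 bp (quartiles 140 and 236 bp), compared with 181 bp (138 and 272 bp) in the bins with 10 to 15 peaks and 188 bp over all. The order-statistic intervals of the medians were 164 to 177 bp and 178 to 183 bp. Long peaks were the scarcer ones: 103 members, or 15.7% (Wilson interval 13.1% to 18.6%), measured at least 300 bp, compared with 20.5% in the comparison bins and 23.8% of all. The share of peaks at 134 bp, the shortest length in the list, differed little, with 137 members (20.8%, 17.9% to 24.1%), 22.0% of the comparison peaks and 20.6% of all. This order of the lengths depended on the limit. In bins with only 1 or 2 peaks the median length was 186 bp and thus above the comparison bins.

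**Figure D2:**
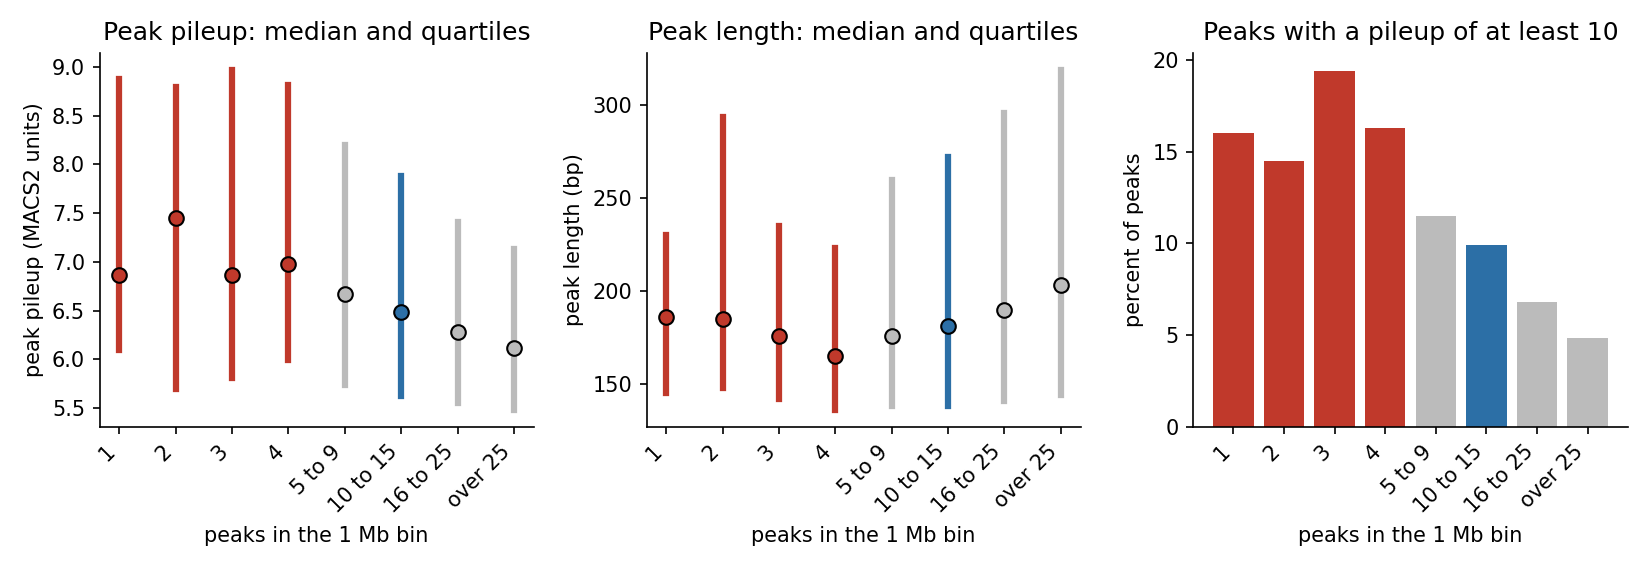
Pileup (left, MACS2 units) and length (middle, bp) of autosomal Hmga2 peaks by the number of peaks in their 1 Mb bin, with the median as a point and the quartiles as a bar, and the percent of peaks with a pileup of at least 10 (right). Peak-poor bins are red and bins with 10 to 15 peaks blue. The median pileup fell from 6.98 in bins with 4 peaks to 6.12 in bins with over 25, while the median length fell from 186 bp in bins with 1 peak to 165 bp in bins with 4 and was 203 bp in bins with over 25.

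From the bins with 5 to 9 peaks upward, both measures changed gradually. The median pileup was 6.67 in bins with 5 to 9 peaks, 6.49 with 10 to 15, 6.28 with 16 to 25 and 6.12 with over 25. The median length over the same classes was 176, 181, 190 and 203 bp. The limit of 4 peaks did not mark a step in length, since bins with 4 and with 5 peaks had median lengths of 165 and 170 bp. Their median pileups were 6.98 and 6.65, and 16.3% and 11.3% of their peaks had a pileup of at least 10. Within the peak-poor bins the median pileups, 6.87, 7.46, 6.87 and 6.98 in bins with 1, 2, 3 and 4 peaks, had no order. The median lengths did, and fell from 186 to 185, 176 and 165 bp, so that over all bins length first fell and then rose with the number of peaks. The share of peaks at the shortest length was 8%, 14.5%, 19.4% and 23.9% in the same bins. The bins with 1 and 2 peaks hold only 25 and 76 peaks.

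What thinned out towards the peak-poor bins was mainly the low peaks. A peak-poor bin held on average 2.49 peaks with a pileup under 10 and 0.511 with a pileup of at least 10. In bins with 10 to 15 peaks these means were 11.1 and 1.22, and in bins with over 25 peaks 32.2 and 1.64. From peak-poor bins to those with over 25 peaks, low peaks thus became 12.9 times as frequent and high peaks 3.21 times. The classes are set by the total count, which low peaks dominate, so the steeper change of the low peaks is in part built into the classes. At least 1 peak with a pileup of at least 10 was present in 89 of the 219 peak-poor bins (40.6%) and in 65.7% of the bins with 10 to 15 peaks.

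**Figure D3:**
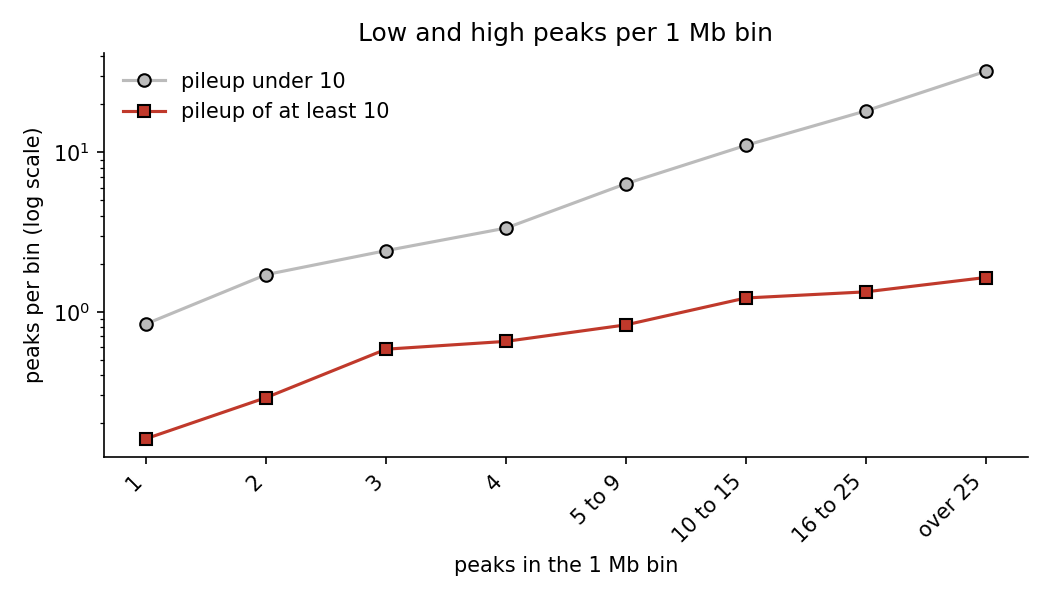
Mean number of Hmga2 peaks per 1 Mb bin (vertical axis, log scale) with a pileup under 10 (grey circles) and of at least 10 (red squares), by the number of peaks in the bin (horizontal axis). From bins with 4 peaks to bins with over 25, the low peaks went from 3.35 to 32.2 per bin and the high peaks from 0.652 to 1.64.

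The fold enrichment and the q-value, read from the list after restoring their decimal points, followed the pileup. The median fold was 4.02 in the members (quartiles 3.53 and 4.77), 3.81 in the comparison bins and 3.75 over all. A fold of at least 4 was reached by 337 members (51.2%), by 40.8% of the comparison peaks and by 37.2% of all. A q under 0.05 was reached by 537 members (81.6%), compared with 74.2% and 72.4%, and a q under 1e-05 by 81 members (12.3%), compared with 7.52% and 6.03%. Fold and q are computed from the pileup and the background, so they are not separate evidence of the difference.

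The background that MACS2 set against the pileup, computed here from pileup and fold, was compared as well. Its median was 0.871 in the members and 0.877 in the comparison bins, and it lay within 1% of the lowest background of the list in 299 members (45.4%), compared with 42.2% in the comparison bins and 44.6% of all. A background over 1.5 was found at 44 members (6.69%, Wilson interval 5.02% to 8.86%), compared with 4.11% (3.72% to 4.55%) in the comparison bins and 3.09% of all. Peaks were also compared in 4 bands of background, which held 299, 149, 166 and 44 members. The median pileup was higher in the members in each. Among peaks within 1% of the lowest background the median pileup was 6.49 in the members and 6.02 in the comparison bins. It was 6.54 and 6.27 above that and below 1, 7.74 and 7.38 for a background from 1 to 1.5, and 10.7 and 9.73 above 1.5. Peaks of the lowest band share nearly the same background, so the list does not show how their local input differed. What part the background has in the difference was not tested.

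Peaks of like length were compared too, because MACS2 averages the pileup over a broad region. Among peaks of the shortest length the median pileup was 6.55 in the members and 6.24 in the comparison bins. Above that and under 200 bp it was 7.89 and 7.53, from 200 to 299 bp 6.60 and 6.08, and from 300 bp on 6.03 and 5.87. In each of the 4 length bands the members were higher, by 0.16 to 0.52. These bands held 137, 276, 142 and 103 members, and the differences have no interval. What part the length has in the difference was not tested. Conversely, at a pileup of at least 10 the median length was 183.5 bp in the 112 members and 192 bp in the 872 comparison peaks.

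Peak-poor and empty bins were unevenly spread over the autosomes. Chromosome 7 had the highest share, 42 of 147 bins or 28.6% (Wilson interval 21.9% to 36.3%). It was followed by chromosome 12 with 17.9% (12.0% to 25.9%) and chromosome 5 with 17.6% (12.3% to 24.5%). At the low end, chromosome 3 had none among 155 bins, which allows a share of up to 2.42% by the upper Wilson bound, chromosome 6 had 3.45% (1.48% to 7.82%) and chromosome 10 had 4.80% (2.22% to 10.1%). The intervals of chromosomes 5 and 12 overlap that of chromosome 7. These intervals treat bins as independent, although such bins tended to adjoin each other, so they are too narrow. Chromosome 7 thus held 6.17% of the whole bins and 3.65% of their peaks, but 12.3% of the members and 14 of the 29 empty bins (48.3%). Empty bins were found on 8 of the 19 autosomes.

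**Figure D4:**
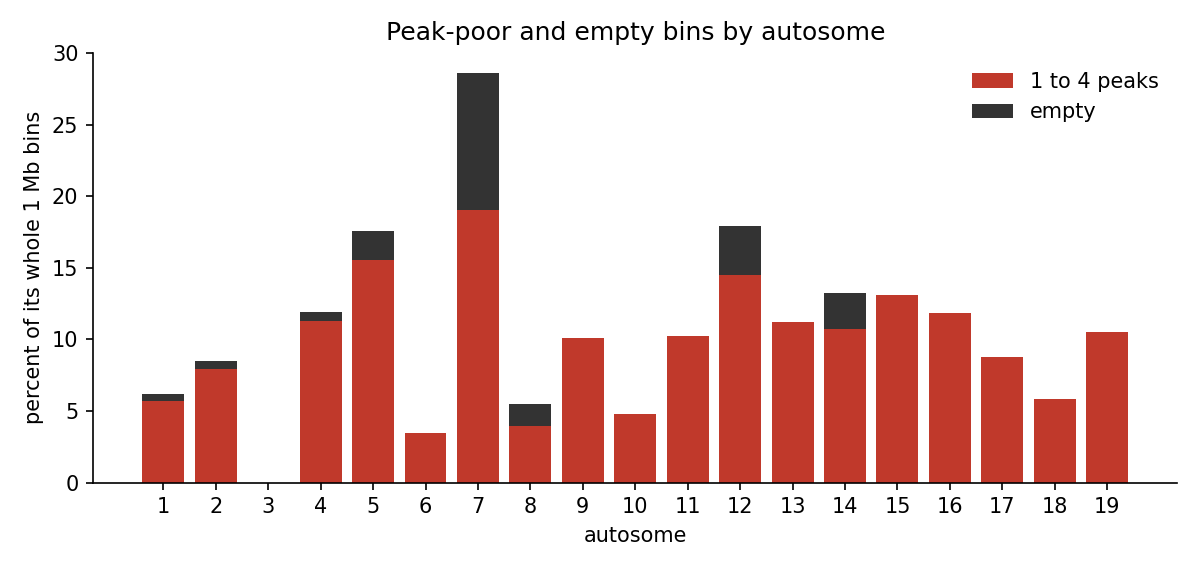
Percent of the whole 1 Mb bins of each autosome that hold 1 to 4 Hmga2 peaks (red) or none (dark). Chromosome 7 reaches 28.6%, chromosomes 12 and 5 follow, and chromosome 3 has no such bin.

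In GRCm38, chromosome 7 has 13.9 protein-coding genes per Mb and 56.9% A+T, and chromosome 3 has 6.27 genes per Mb and 59.5% A+T, the highest A+T percent of the autosomes. The order was not the same throughout. Chromosome 12, with the second highest share of peak-poor and empty bins, has 5.35 genes per Mb and 58.3% A+T. Chromosome 5, with the third highest share, has 8.30 genes per Mb and 57.5% A+T. At the low end, chromosomes 6 and 10 have 7.43 and 7.81 genes per Mb, both with 58.6% A+T. A relation over all autosomes was not tested. Chromosome 11, close to chromosome 7 in both properties with 13.4 genes per Mb and 56.2% A+T, had 12 peak-poor bins of 117 and no empty one.

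The higher pileup was seen on most chromosomes taken alone. Of the 14 autosomes with at least 20 members, 13 had a higher median pileup in the members than in their own bins with 10 to 15 peaks. The exception was chromosome 11, where 41 members had a median of 6.34 and 413 comparison peaks one of 6.76. Among all 18 autosomes with members, 16 had the higher median in the members, the other exception being chromosome 19 with 6.44 in 19 members and 6.58 in the comparison peaks. The difference was largest on chromosome 4, with 7.65 in 47 members and 6.35 in 588 comparison peaks, and smallest among the positive ones on chromosome 9, with 6.40 and 6.31. On chromosome 15, 35.9% of the 39 members had a pileup of at least 10, compared with 10.7% of the comparison peaks, whereas on chromosome 11 the shares were 7.32% and 15.5%. The median length was shorter in the members on 12 of the 14 autosomes, and longer on chromosomes 9 and 14. Among all 18 it was shorter on 14, and it was also longer on chromosome 6 (189 and 176 bp, 16 members) and on chromosome 8 (259 and 189 bp, 13 members), where the difference of 70 bp was the largest of any autosome.

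**Figure D5:**
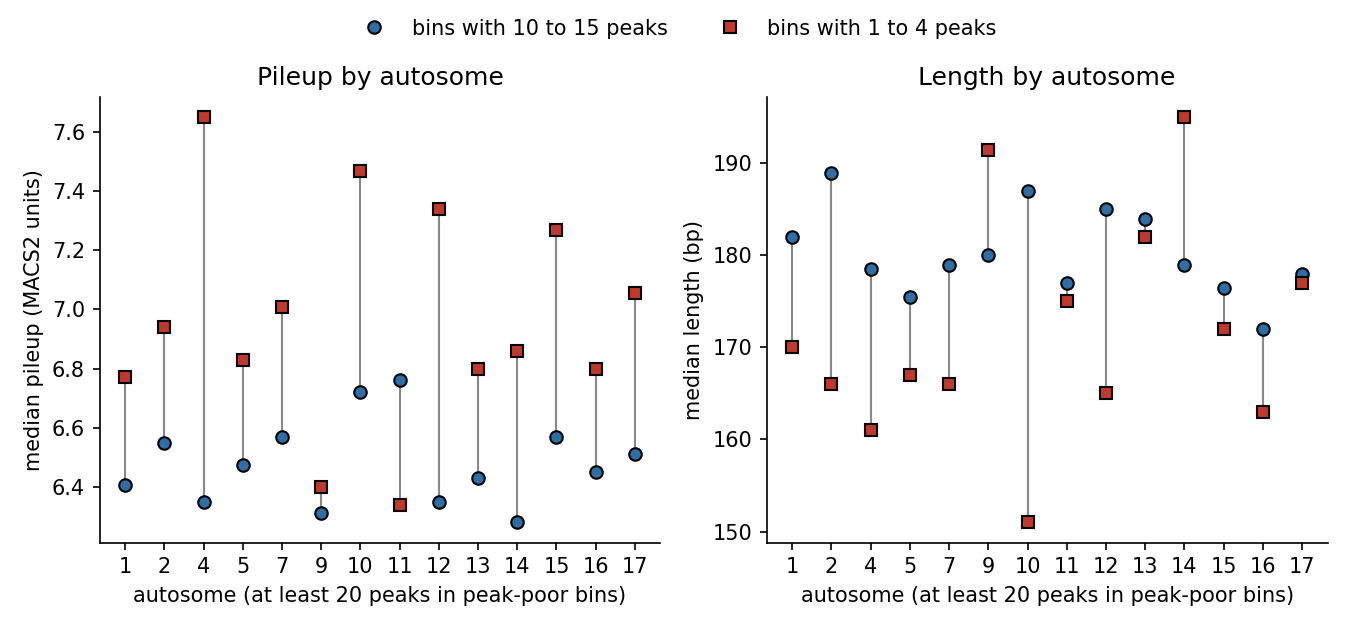
Median pileup (left, MACS2 units) and median length (right, bp) of Hmga2 peaks in bins with 1 to 4 peaks (red squares) and with 10 to 15 peaks (blue circles) of the same autosome, for the 14 autosomes with at least 20 members; the axes do not start at 0. The red square is the higher one for pileup on 13 autosomes and the lower one for length on 12.

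Megabases poor in peaks tended to lie together. The 248 bins with 0 to 4 peaks formed 148 runs of consecutive bins, of which 100 were single bins, 26 spanned 2 Mb, 11 spanned 3 Mb and 11 spanned 4 Mb or more. Thus 59.7% of these bins adjoined another. The bins beside a peak-poor bin held a median of 6 peaks, and 35.9% of them had 0 to 4, compared with a median of 12 and 5.92% beside bins with 10 to 15 peaks, and 12 and 10.4% beside all bins. Even the 100 isolated bins lay in thin surroundings, since the bins on either side of them held a median of 9 peaks (quartiles 6 and 12), although 1 neighbour had 35. Over 15 peaks were held by 6.68% of the neighbours of peak-poor bins, 27.0% of those of bins with 10 to 15 peaks and 33.6% of those of all bins. The last bins of chromosomes held more than their share of bins with 0 to 4 peaks, and the first bins less clearly so. Of the bins with 0 to 4 peaks, 40 (16.1%) were among the last 10 whole bins of their chromosome and 27 (10.9%) among the first 10, each of which make up 7.97% of all bins. Of the empty bins, 1 (3.45%) was among the last 10, below that share, and 3 (10.3%) were among the first 10.

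The longest run spanned 11 Mb on chromosome 12, at 17000001 to 28000000. It held 23 peaks in 7 bins and 4 empty bins, with pileups from 5 to 14.6 around a median of 6.36. Of the 23 peaks, 3 reached 10, compared with 17.0% of all members and 7.87% of all autosomal peaks in whole bins. The next longest run spanned 8 Mb on chromosome 7, at 39000001 to 47000000. There 6 consecutive empty bins lay between 2 bins of 3 peaks each. The pileups at these peaks were 11.01, 15.1 and 6.81 on the proximal side and 18.8, 10.96 and 5.93 on the distal side. Of these 6, 4 exceeded 10, compared with 19 of the 81 members in all runs with an empty bin (23.5%) and 7.87% of all autosomal peaks in whole bins. Peak 29451, the first after the empty stretch, was among the 10 highest of all members. Its background was 0.845, close to the lowest of the list, while peak 29452 next to it had a background of 2.61.

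Runs of 6 Mb were found on chromosome 2 at 175000001 to 181000000, on chromosome 7 at 19000001 to 25000000 and on chromosome 16 at 5000001 to 11000000. The run on chromosome 2 ended with the last whole bin of that chromosome. Its 15 peaks had a median pileup of 7.51 and a highest of 18.5, and 4 of them reached 10. The run on chromosome 7 held 6 peaks, with a median pileup of 7.71 and a highest of 11.4, and its last 4 bins were empty. The run on chromosome 16 had 2 to 4 peaks in every bin and no empty one, and its 19 peaks had a median pileup of 6.76. Members in runs with and without an empty bin had overlapping values, with median pileups of 7.39 (81 members, quartiles 5.93 and 9.85) and 6.88 (577 members, 5.88 and 8.82), and a background over 1.5 at 7 (8.64%) and 37 (6.41%) of them. A pileup of at least 10 was found in 19 of the 81 (23.5%, Wilson interval 15.6% to 33.8%) and in 93 of the 577 (16.1%, 13.3% to 19.3%).

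Empty bins adjoined each other in 6 places. Besides the stretches of 6 bins at 40000001 to 46000000 and of 4 bins at 21000001 to 25000000 on chromosome 7, there were 4 pairs, on chromosome 5 at 94000001 to 96000000, on chromosome 8 at 20000001 to 22000000, and on chromosome 12 at 18000001 to 20000000 and at 23000001 to 25000000. The other 11 empty bins stood alone. Of the bins beside an empty bin, 75.9% held 0 to 4 peaks, and 1 of 58 held over 15. That one was on chromosome 4, where the empty bin at 60000001 to 61000000 followed a bin with 21 peaks. Measured from peak to peak, the largest gap was 7.12 Mb, on chromosome 7 between 39285020 and 46409040, and the next was 4.44 Mb, on the same chromosome between 20618045 and 25055664. In all, 38 gaps exceeded 1 Mb, and 8 exceeded 2 Mb. Reads mapping ambiguously had been discarded, and how much of each bin is assembled or uniquely mappable is not in the list. A lack of mappable sequence and a lack of Hmga2 in these bins therefore cannot be told apart here.

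Few members had a close neighbour, as follows from the rule. The nearest other peak centre was a median of 114 kb away (quartiles 45.3 and 222 kb), compared with 25.6 kb in the bins with 10 to 15 peaks, and 36 members (5.47%) had another peak within 10 kb, compared with 24.4% in those bins and 33.6% of all autosomal peaks in whole bins. These 36 had a median pileup of 7.35, and the other 622 had one of 6.87, with a pileup of at least 10 in 30.6% and 16.2% of them. The 36 are few, and close peaks of other bins were not compared in this way. A neighbour within 1 kb was found for 0 of the 658 members, 202 of the 8778 comparison peaks and 1012 of the 33754 peaks in whole bins, and the closest members were 1.03 kb from the next peak. The most remote members lay on chromosomes 5 and 14. Peak 25699, on chromosome 5 at 26833099 to 26833236, was 1324 kb from the nearest peak and had a pileup of 6.80. Peaks 9607 and 9608, alone in their bins on chromosome 14 at 6031041 to 6031174 and at 7334893 to 7335155, were 1304 kb apart, with pileups of 8.65 and 5.76.

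The 25 peaks that were alone in their megabase had pileups from 5.00 to 11.5 around a median of 6.87. Of these, 4 (16%) reached 10, near the 17.0% of all members, compared with 7.87% of all autosomal peaks in whole bins. The highest, peak 27224 on chromosome 5 at 143737569 to 143737754, had a fold of 6.33, and peak 30496 on chromosome 7 at 145011940 to 145012130 had a pileup of 11.3 and a fold of 6.33. Peak 1273, on chromosome 1 at 85235780 to 85236009, also reached a pileup of 10.6, but with a background of 2.92 its fold was only 2.96. At the lower end, peak 4199 on chromosome 10 at 81917602 to 81917861 had a pileup of 5.00, the lowest value in the list. Of the lone peaks, 2 (8%) were of the shortest length and 1 (4%) measured at least 300 bp. Over all autosomal peaks in whole bins these shares were 20.6% and 23.8%.

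The 10 members with the highest pileup, between 18.4 and 21.3, lay on 9 autosomes, chromosome 2 holding 2 of them. The highest was peak 5075 on chromosome 11, at 5385042 to 5385216. Its pileup was 21.3, its fold 9.09 and its length 175 bp, and it ranked 38 among the autosomal peaks in whole bins. Peak 27130, on chromosome 5 at 125884052 to 125884269, followed with a pileup of 21.1 and a fold of 8.92. Peak 9171, on chromosome 13 at 92855245 to 92855621, reached 20.2 over 377 bp, the longest of the 10. The highest fold, 11.2, was that of peak 25139, on chromosome 4 at 127227294 to 127227502, whose pileup of 19.7 stood over a background of 0.844, the lowest of the 10. The other 6 had pileups of 18.4 to 18.8 and were on chromosomes 7, 2, 9, 19 and 12. The nearest centre was 34.7 to 243 kb from these 10, compared with a median of 114 kb over all members, and 8 of them measured 175 to 226 bp. Thus 6 of the 100 highest pileups in whole autosomal bins were members, which make up 1.95% of all peaks in these bins.

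The pileups of the 5 longest members lay on either side of the members' median of 6.94, with 2 above it. Peak 9923, on chromosome 14 at 44048799 to 44049603, was 805 bp long with a pileup of 8.56, and its background of 1.94 left a fold of 3.25. Peak 14997, on chromosome 17 at 25901711 to 25902414, and peak 31466, on chromosome 8 at 57940420 to 57941094, measured 704 and 675 bp with pileups of 5.88 and 5.60. Peak 832, on chromosome 1 at 57095861 to 57096495, was 635 bp long and reached 9.29, the highest of the 5. Peak 11555, on chromosome 14 at 122929827 to 122930409, was 583 bp long with a pileup of 6.86. The highest background of the members, 5.35, was that of peak 27131 on chromosome 5, at 126315536 to 126315700, so that a pileup of 16.9 gave a fold of 2.81, the lowest of the members.

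The study designed primers for 5 peaks that it names by number. The primer sequences were not located, so these peaks were matched by their number in the list. On that footing 1 of the 5 is a member. This peak, on chromosome 10 at 77516114 to 77516300, shared its megabase with 3 other peaks and was 192 kb from the nearest. It was 187 bp long, with a pileup of 15.3, a fold of 8.83 and a background of 0.845. The bins of the other 4 held 18 to 46 peaks.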

How the data were processed

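One table, the peak list of the Hmga2 ChIP library, was analysed. After trimming with Trim Galore, the authors mapped reads with BWA, discarded those mapping ambiguously and called broad peaks with MACS2 over the input. Nothing was pooled. The deposited pileup is a signal, used as deposited, and may be a scaled value. Of the deposited score columns (fold, -log10 p and -log10 q), the fold exceeded pileup plus 1, its largest possible value, in 34258 of 34597 peaks, so the decimal points were placed anew such that fold, pileup and the Poisson p fitted each other. The median deviation of the restored p from a Poisson p was 0.473%. In tests on simulated data, all 20000 peaks and 300 bins were recovered. The planned use of these columns had assumed values as their headers name them. The background is (pileup + 1) / fold - 1. Library depth is not in the list, so no interval that needs it was given, and the depth behind each peak is unknown.

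Bins were 1 Mb wide, and 332 autosomal peaks outside whole bins were left out. Medians have 95% order-statistic intervals and shares 95% Wilson intervals (scipy 1.17.1), both for counting error only. The peaks, bins and limits were chosen with earlier results of these data known. Named are the 10 highest and 5 longest members, the 5 longest runs, runs of empty bins and the 3 autosomes at either end. Lone peaks, remote peaks, the highest background and the primer peak were chosen after their values were seen. Sequence and gene comparisons were not run, for lack of a genome of the build of the list. Chromosome gene density and A+T percent come from GRCm38 with GENCODE M21. The alternatives tried were q under 0.05, fold of at least 4, shifted bins, other limits, omitted chromosomes, merged peaks, omitted edges and, for pileup and length, omission of the shortest peaks, differences within each autosome and each bin counted once.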

Additional observations from a re-analysis of the deposited data

How the results depend on the processing

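The higher median pileup of the members held in all 11 alternatives, with a difference of 0.31 to 0.86, the latter with a limit of 1 to 2 peaks. The shorter median length held in 10 of 11. The difference shrank to -5 bp among peaks with a q under 0.05 and to -3 bp among those with a fold of at least 4, was -19 bp without the shortest peaks and reversed to 5 bp with a limit of 1 to 2 peaks. The members numbered 1142 in 375 bins at a q under 0.05, 2866 in 1039 bins at a fold of at least 4, 101 in 63 bins with a limit of 1 to 2 peaks and 1872 in 437 bins with a limit of 1 to 6, all by construction. Empty bins numbered 87 at a fold of at least 4 and 15 without chromosomes 7 and 11. The share of members at the shortest length was 17.1% at a fold of at least 4, where it passed the 16.3% of the comparison bins, and 12.9% with a limit of 1 to 2 peaks. The share with a pileup of at least 10 came to 23.0% with a fold of at least 4, 13.5% in shifted bins and 14.1% with a limit of 1 to 6, above the comparison bins in each. The share of bins adjoining another rose to 79.0% among peaks with a fold of at least 4 and to 66.3% with a limit of 1 to 6. More bins were peak-poor in these settings, 1039 and 437, which by itself raises this share. Counting each bin once, an alternative chosen after seeing the data, gave differences of 0.40 in pileup and -5.5 bp in length. The cause of the changes that are not by construction was not tested. No paired analysis was possible because the ChIP was not replicated. Library depth is unknown, which limits what can be said of members with low pileups.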

Other observations

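Chromosome X, which the rule leaves out, was peak-poor along most of its length. Of its 161 whole bins, 104 held 1 to 4 peaks and 23 were empty, together 78.9%, and the longest run of such bins spanned 28 Mb. The 233 peaks in bins with 1 to 4 peaks on X are set beside those on the autosomes. Their median pileup was 6.37 (quartiles 5.55 and 7.53), below the 6.94 of the autosomal members, and 11 of them (4.72%, 95% Wilson interval 2.66% to 8.25%) had a pileup of at least 10, compared with 17.0% of the autosomal members. Their median length was 161 bp (134 and 233 bp), and 30.5% were of the shortest length. The median background was 0.845 at these X peaks. No test was made, since all these peaks come from 1 library. The number of X copies in these cells is not in the list. Fewer copies and less Hmga2 on X therefore cannot be told apart here.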
